A study of Mus musculus with 22 samples.

Results

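To follow how active chromatin is laid down when GATA1 is switched on, H3K27ac was profiled by ChIP-seq in G1ER (G1E-ER4) cells over a time course of β-estradiol. The regions described here carried no H3K27ac peak before induction, carried one at 6 h, and still carried one at 24 h. The 10 H3K27ac peak lists were merged where peaks touched, which gave 24299 regions. Members were chosen by presence alone: a peak in neither 0 h list, in both 6 h lists, and in both 24 h lists, with an overlap of at least 1 bp. There were 279 such regions, 1.15% of all regions. The mirror pattern of loss, with a peak in both 0 h lists and in neither list at 6 and 24 h, was found in 291 regions. Because the lists at 0, 6 and 24 h chose the members, the values in those 6 lists are given as a description only, and the 4 lists at 2 and 12 h were not used by the rule.

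G1ER is a mouse erythroid progenitor line that lacks endogenous Gata1 and constitutively expresses GATA1 fused to the ligand-binding domain of the estrogen receptor (GATA1-ER). All groups shared this genotype and a medium with stem cell factor and erythropoietin, and differed in the time of exposure to β-estradiol (0, 2, 6, 12, or 24 h). Each time point had 2 replicates for H3K27ac and 2 for H3K4me3, and CTCF had 1 list at 0 h and 1 at 24 h, 22 lists in all. The line is a subclone of one parental line, and GATA1-ER is expressed from a transgene. The study describes the ChIP-seq replicates as independent experiments in this line.

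H3K27ac is a histone acetylation found at active promoters and active enhancers, and its gain at a distal site accompanies enhancer activation. GATA1 is the master transcription factor of red cell maturation. It binds the GATA motif, recruits coactivators with acetyltransferase activity, and turns progenitor genes off while turning erythroid genes on.

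Each list gave the position of a peak and a score set by the authors. Read counts were not among the values, the depth is unknown, and a missing peak cannot be told apart from a signal just under the caller's threshold. In bulk samples, acetylation in fewer cells and less acetylation per cell also cannot be told apart. H3K27ac lists held 17247 to 18333 peaks each. As a check of the cell identity, H3K4me3 within 2 kb of the transcription start site (TSS) was sought in both 0 h lists. It was present for 7 of 8 heme synthesis genes, 4 of 7 globin genes and 13 of 18 erythroid transcription factors. At 24 h these counts were 7, 4 and 11. Progenitor and myeloid transcription factors had it at 10 of 16 genes at 0 h and 9 at 24 h. In other cell type lists H3K4me3 was present at 0 h for 0 of 8 macrophage, 0 of 8 hepatocyte, 1 of 8 T cell, 1 of 8 B cell and 1 of 8 neuron genes. Mast cell genes, which progenitors of this kind can express, had it at 4 of 14 genes at 0 h and 1 of 14 at 24 h, and megakaryocyte genes at 3 and 2 of 10.

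The sequences below show, for 6 members, the stretch of the shared peak chosen for holding most GATA motifs. The GATA motif is the sequence to which GATA1 binds, and it was more frequent in the members than in all regions. The 4 members whose nearest TSS belongs to a gene of the fixed lists come first (Erfe, Btg2, Tmem44, Pim1), followed by the 2 strongest others at 2 and 12 h (Cd274, Grk2). Each run is 200 bases of the plus strand of GRCm38 (mm10), read from the RefSeq genome, and capitals mark the GATA motif. Its forms were AGATAA and, with the first base changed, TGATAA, together with those that end in another base, AGATAG and then also TGATAG, each searched on both strands.
Erfe, chr1:91373706-91373905: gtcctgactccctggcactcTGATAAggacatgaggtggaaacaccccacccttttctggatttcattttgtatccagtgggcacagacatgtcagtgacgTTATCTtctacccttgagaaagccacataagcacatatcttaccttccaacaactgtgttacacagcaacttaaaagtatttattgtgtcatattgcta
Btg2, chr1:134086981-134087180: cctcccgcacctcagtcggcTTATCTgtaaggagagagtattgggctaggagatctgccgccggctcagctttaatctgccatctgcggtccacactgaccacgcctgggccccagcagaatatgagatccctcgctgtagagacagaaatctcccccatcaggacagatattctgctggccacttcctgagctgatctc
Tmem44, chr16:30548302-30548501: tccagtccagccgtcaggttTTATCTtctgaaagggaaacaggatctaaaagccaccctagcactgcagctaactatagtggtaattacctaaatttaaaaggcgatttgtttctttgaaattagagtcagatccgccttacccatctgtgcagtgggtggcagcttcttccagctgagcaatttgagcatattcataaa
Pim1, chr17:29512915-29513114: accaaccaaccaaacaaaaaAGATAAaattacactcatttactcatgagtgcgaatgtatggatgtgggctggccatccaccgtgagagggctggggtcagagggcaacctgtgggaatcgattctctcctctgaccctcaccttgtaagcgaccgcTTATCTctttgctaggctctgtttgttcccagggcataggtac
Cd274, chr19:29368241-29368440: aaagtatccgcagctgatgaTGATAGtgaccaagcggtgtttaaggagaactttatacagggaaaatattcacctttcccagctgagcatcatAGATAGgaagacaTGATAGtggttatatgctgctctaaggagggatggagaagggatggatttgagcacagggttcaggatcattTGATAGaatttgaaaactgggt
Grk2, chr19:4294132-4294331: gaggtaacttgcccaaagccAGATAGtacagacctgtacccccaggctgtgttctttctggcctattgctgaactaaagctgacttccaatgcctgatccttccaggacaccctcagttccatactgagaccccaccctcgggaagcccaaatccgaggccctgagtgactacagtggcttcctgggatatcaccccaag
The Cd274 stretch held 4 matches, and 1 of them followed a CTG at the spacing of the composite site bound by GATA1 together with TAL1. The Erfe and Pim1 stretches held 2 each, and the Btg2, Tmem44 and Grk2 stretches 1 each.

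The lists at 2 h showed how many members already had a listed peak. A peak was present at 155 of the 279 regions in the first 2 h list and at 170 in the second, so that both lists held a peak at 112 regions (40.1%, 95% Wilson interval 34.6% to 46.0%), 1 list at 101, and neither at 66. At 12 h the lists held a peak at 235 and 229 regions, both lists at 201 (72.0%, 66.5% to 77.0%), 1 list at 62, and neither at 16. Both 2 h lists held a peak at 65.4% of all 24299 regions and both 12 h lists at 66.2%. Presence among the members was thus below that of all regions at 2 h. At 12 h it was above, but this direction did not hold for members chosen without the first 6 h list (62.0%), the second 6 h list (64.4%) or the second 24 h list (63.4%). Nor did it hold when the rule was applied to higher-scoring peaks only, at or above the median score. The rule then chose 87 regions, with a peak in both 12 h lists at 69.0%, against 77.5% of 10978 regions. A 0 h peak below that score no longer counted, so these 87 are not a part of the 279. In the 326 regions gained late, which had a peak in both 24 h lists but in no list at 0 or 6 h, the shares were 4.60% at 2 h and 18.7% at 12 h. In 89 members all 4 of these lists held a peak, and in 9 members none did. The 16 regions without a peak at 12 h had one at 6 and 24 h by the rule, so their record is interrupted.

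**Figure D1:**
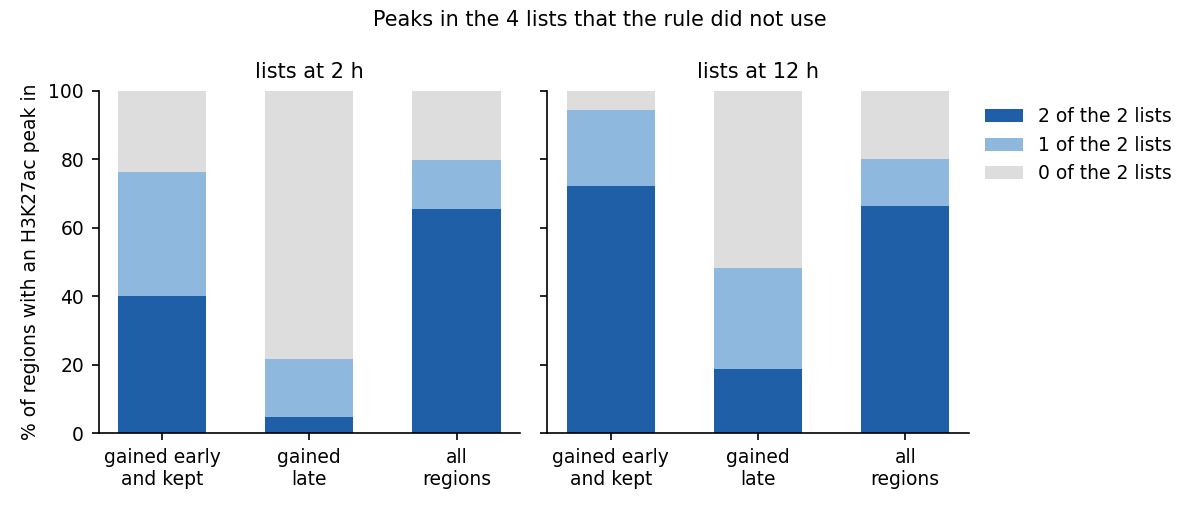
Share of regions with an H3K27ac peak in 2, 1 or 0 of the replicate lists at 2 h (left) and 12 h (right), for the 279 regions gained early and kept, the 326 regions gained late, and all 24299 regions. Both lists held a peak at 40.1% of the first group at 2 h and at 72.0% at 12 h, against 4.60% and 18.7% of the second.

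Among the members, presence at 2 h went along with presence at 12 h. Of the 66 members without a peak at 2 h, 57.6% had one in both 12 h lists, compared with 73.3% of the 101 members with a peak in 1 list and 79.5% of the 112 members with a peak in both. The same split was not made over all regions, so it is not read as a trait of the members. In the same 3 groups the median covered length at 6 h, averaged over replicates, was 1235, 1295 and 1686 bp. At 24 h it was 1672, 1710 and 2071 bp. The lists at 6 and 24 h chose the members, so these lengths are a description only. A link between length and presence at 2 h was not tested. The median distance to the nearest protein-coding TSS was 20916.5, 20994 and 22264 bp.

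Peaks in the members were low in their lists. Summed over the members, peaks covered 308 and 311 kb in the lists at 2 h, 518 and 537 kb at 6 h, 490 and 474 kb at 12 h, and 636 and 586 kb at 24 h. The replicates of a time point differed by less than the step from 2 h to 12 h. Where a peak was present, its median score percentile within the list was 13.6 or 14.9 in the 2 h lists, 17.2 or 15.3 in the 6 h lists, 19.2 or 20.1 in the 12 h lists, and 23.3 or 21.5 in the 24 h lists, where 50 is the middle of a list. The highest percentile of any member in any list was 67.4. Both 24 h lists were longer than both 6 h lists in 117 members and shorter in 31, where the shares of all regions were 15.8% and 18.2%. These lists chose the members, so nothing is read from that count.

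**Figure D2:**
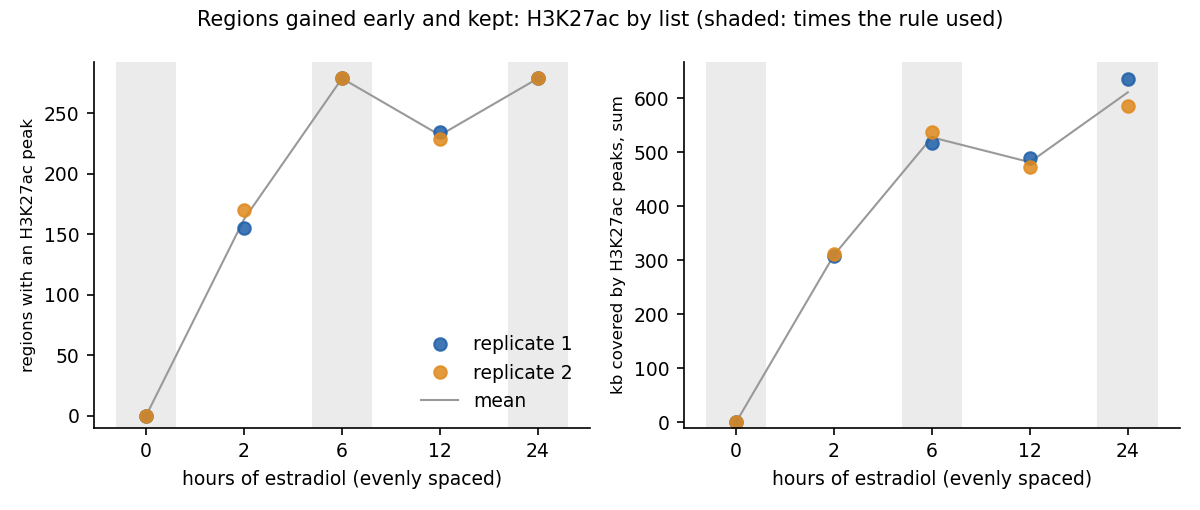
Number of the 279 regions with an H3K27ac peak (left) and kb covered by peaks, summed over the regions (right), in each list, with points for the 2 replicates and a line through their mean. Shaded time points (0, 6 and 24 h) were used to choose the regions; the lists at 2 h hold a peak at 155 and 170 regions and those at 12 h at 235 and 229.

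The rule has an edge where a peak barely passes the caller. Among the members with the weakest deciding peaks were those near Stard8 (score 50.05) and Cystm1 (50.05), just above the lowest deposited score of 50. Just outside, regions near Lypd8, Plekho1 and Gpat4 had a 0 h peak with a score of 50.04, 50.06 and 50.11 and met every other condition. One extra peak in the first 0 h list kept 231 regions out, and one in the second kept 264 out. One missing peak at 6 h kept out 131 regions in the first list and 97 in the second, and at 24 h 52 and 82.

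Covered length at 12 h against 2 h was tested with limma on log2(covered bp + 200) over the 4 lists that the rule did not use. The fit took 18272 regions with a peak in at least 2 of these lists. Of all regions tested, 0.235% were called longer at 12 h and 0.41% shorter (Benjamini-Hochberg adjusted p under 0.05). Of the members, 245 passed the filter, 4 were called longer and 0 shorter, and at an unadjusted p under 0.05 there were 59. The 4 had no peak at 2 h and passed the filter only through the 12 h lists, so they had to differ and the calls carry no weight. With no filter limma called 0 members and 0 regions (55 and 2123 at an unadjusted p under 0.05). Without a test, both 12 h lists exceeded both 2 h lists at 124 of the 279 members (44.4%), against 20% of all regions, and both fell below them at 18 (6.45%), against 10.6%. Of the 124, 38 had no peak at 2 h and a peak in both 12 h lists. The rule asks for no peak at 0 h and for peaks at 6 and 24 h, which favours such an excess. Of all regions, 54.4% were in all 10 lists. Nothing is therefore read from the excess. The count of 4 did not hold without any 1 of the lists: 0 members were called without the first 2 h list, 0 without the second, 2 (both shorter) without the first 12 h list, and 0 without the second.

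These 4 members are given by their lengths alone. None had a peak in either 2 h list, and each had peaks in both lists at the 3 later time points. The region at the TSS of Tmem50a (chr4:134912630-134920851) covered 0 bp and 0 bp at 2 h, 6290 bp and 3199 bp at 6 h, 7971 bp and 7018 bp at 12 h, and 7929 bp and 7107 bp at 24 h. The region within Col5a1 (chr2:28012954-28017815), a fibrillar collagen gene, covered 3935 bp and 3419 bp at 6 h, 4153 bp and 3869 bp at 12 h, and 2428 bp and 3103 bp at 24 h. In both regions the 2 replicates at 12 h lay within 1 kb of each other.

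The other members of this kind lay in a signalling gene and an endocytosis gene. The region 6962 bp from the TSS of Stk11 (chr10:80122765-80126531), which encodes the LKB1 kinase upstream of AMPK, covered 2200 bp and 2286 bp at 6 h, 2963 bp and 3560 bp at 12 h, and 3664 bp and 3343 bp at 24 h. In an intron of Eps15l1 (chr8:72412696-72416856), an endocytic adaptor gene, the lengths were 2443 bp and 2395 bp at 6 h, 2759 bp and 2792 bp at 12 h, and 4161 bp and 2818 bp at 24 h. None of Stk11, Eps15l1 and the Col5a1 region held H3K4me3 in any list, while the Tmem50a region held it in all 10 lists, 0 h included.

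Among the members near genes of the fixed lists, that of Erfe had its longest peaks in the 24 h lists. Erfe encodes erythroferrone, the hormone by which erythroblasts lower hepcidin and free iron for hemoglobin. Its member (chr1:91370916-91376255) lay 4486 bp from the TSS and reached a coding exon. Peaks covered 0 bp in both 0 h lists, 2515 bp and 1371 bp at 2 h, 3165 bp and 3299 bp at 6 h, 3562 bp and 3300 bp at 12 h, and 4367 bp and 4692 bp at 24 h. Both lists of each later time point exceeded both lists at 2 h, and the log2 difference from 2 to 12 h was 0.81 ± 0.31 (SE; limma adjusted p = 0.574), which was not past the threshold.

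Pim1 and Btg2 differed in whether a peak was listed at 2 h. Pim1 encodes a survival kinase induced by cytokine receptors through STAT5. Its member (chr17:29508544-29513912) was intergenic, 17791 bp from the TSS, and covered 0 bp in both 2 h lists, 1300 bp and 1567 bp at 6 h, 2433 bp and 5162 bp at 12 h, and 1264 bp and 1424 bp at 24 h. It too could enter the fit only through the 12 h lists. Btg2 encodes an antiproliferative protein, and its member (chr1:134085788-134088038), intergenic and 6668 bp from the TSS, was present in both 2 h lists at 1870 and 1472 bp. It then held 1954 bp and 1770 bp at 6 h, 2088 bp and 1791 bp at 12 h, and 1842 bp and 1656 bp at 24 h. The Btg2 values at 2 h overlapped those at 12 h, whereas those of Pim1 did not. For Btg2 the log2 difference between these times was 0.20 ± 0.17 (SE; limma adjusted p = 0.736).

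Of the 10 strongest members at 2 and 12 h, by mean score percentile over these 4 lists, 4 held a TSS, among them Tmem44, Cd274 and Grk2. That at the TSS of Tmem44 (chr16:30543356-30553331), one of the promoters captured in the study, came first at 46.1. It covered 5491 bp and 5697 bp at 2 h, 4100 bp and 7451 bp at 6 h, 4452 bp and 5084 bp at 12 h, and 4216 bp and 3661 bp at 24 h. The TSS region of Cd274 (chr19:29365051-29374221), which encodes the immune checkpoint ligand PD-L1, came next at 44.0. It covered 5023 bp and 5853 bp at 2 h, 5282 bp and 8689 bp at 6 h, 5032 bp and 8507 bp at 12 h, and 5878 bp and 7935 bp at 24 h. Both regions already held over 5 kb in each 2 h list. The merged regions were 9976 and 9171 bp long, longer than any listed H3K27ac peak (at most 8973 bp). Both held H3K4me3 in all 10 lists, 0 h included. Whether a broad domain at 0 h went unlisted was not tested. At Tmem44 both 12 h and both 24 h lists were below both 2 h lists, and at Cd274 the lists at 2 and 12 h overlapped.

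Grk2, which encodes a kinase that desensitizes G protein-coupled receptors, was the nearest gene to 3 members. The region within the gene (chr19:4293254-4297318), 8904 bp from the TSS, covered 3514 bp and 3958 bp at 2 h, 2167 bp and 3837 bp at 6 h, 2664 bp and 1971 bp at 12 h, and 3838 bp and 2098 bp at 24 h. The TSS region (chr19:4299181-4306992) covered 7372 bp and 5032 bp at 2 h, 5144 bp and 7599 bp at 6 h, 7689 bp and 4558 bp at 12 h, and 5093 bp and 4661 bp at 24 h. The third (chr19:4346046-4347475), inside the neighbouring histone demethylase gene Kdm2a, had no peak at 2 h, 1153 bp and 647 bp at 6 h, 1028 bp and 0 bp at 12 h, and 1122 bp and 986 bp at 24 h. The stronger pair was therefore present from 2 h on, and the weak one was not. Eif4g3, Irf2, Jak1 and Kpna3 were each nearest to 2 members, and these genes are named after their values were seen. Irf2 encodes an interferon regulatory factor, and its members differed in their listed peaks at 2 h. That 18962 bp from the TSS covered 4114 bp and 3481 bp at 2 h, and that 32890 bp away covered 0 and 0 bp. Jak1 encodes a cytokine receptor kinase, and both of its intronic members had a peak in both 2 h lists.

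Hspd1 and Gng2 were also among the strongest 10. Hspd1 encodes the mitochondrial chaperonin HSP60, and its member (chr1:55074530-55079686) covered 2425 bp and 1760 bp at 2 h, 2208 bp and 2582 bp at 6 h, 2563 bp and 2649 bp at 12 h, and 4851 bp and 2901 bp at 24 h. A member in an intron of Gng2 (chr14:19925017-19929283), a G protein γ subunit gene, covered 1612 bp and 1443 bp at 2 h, 2929 bp and 3104 bp at 6 h, 1849 bp and 2811 bp at 12 h, and 4267 bp and 3079 bp at 24 h. Both were present in all 8 lists after 0 h, and neither passed the 12 h against 2 h test (limma adjusted p = 0.717 and 0.646). An intronic region of Zbtb16 (chr9:48709520-48716208), which encodes the transcription factor PLZF, covered 6689 bp and 4503 bp at 2 h and 5640 bp and 4417 bp at 12 h. Ranked with them was a region 3106 bp from the TSS of Lrrc8b (chr5:105407201-105412669), a subunit gene of the volume-regulated anion channel, which covered 0 bp and 5039 bp at 2 h and 5370 bp and 5337 bp at 12 h. At Lrrc8b, 1 list thus lacked a peak that its replicate held at over 5 kb.

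**Figure D3:**
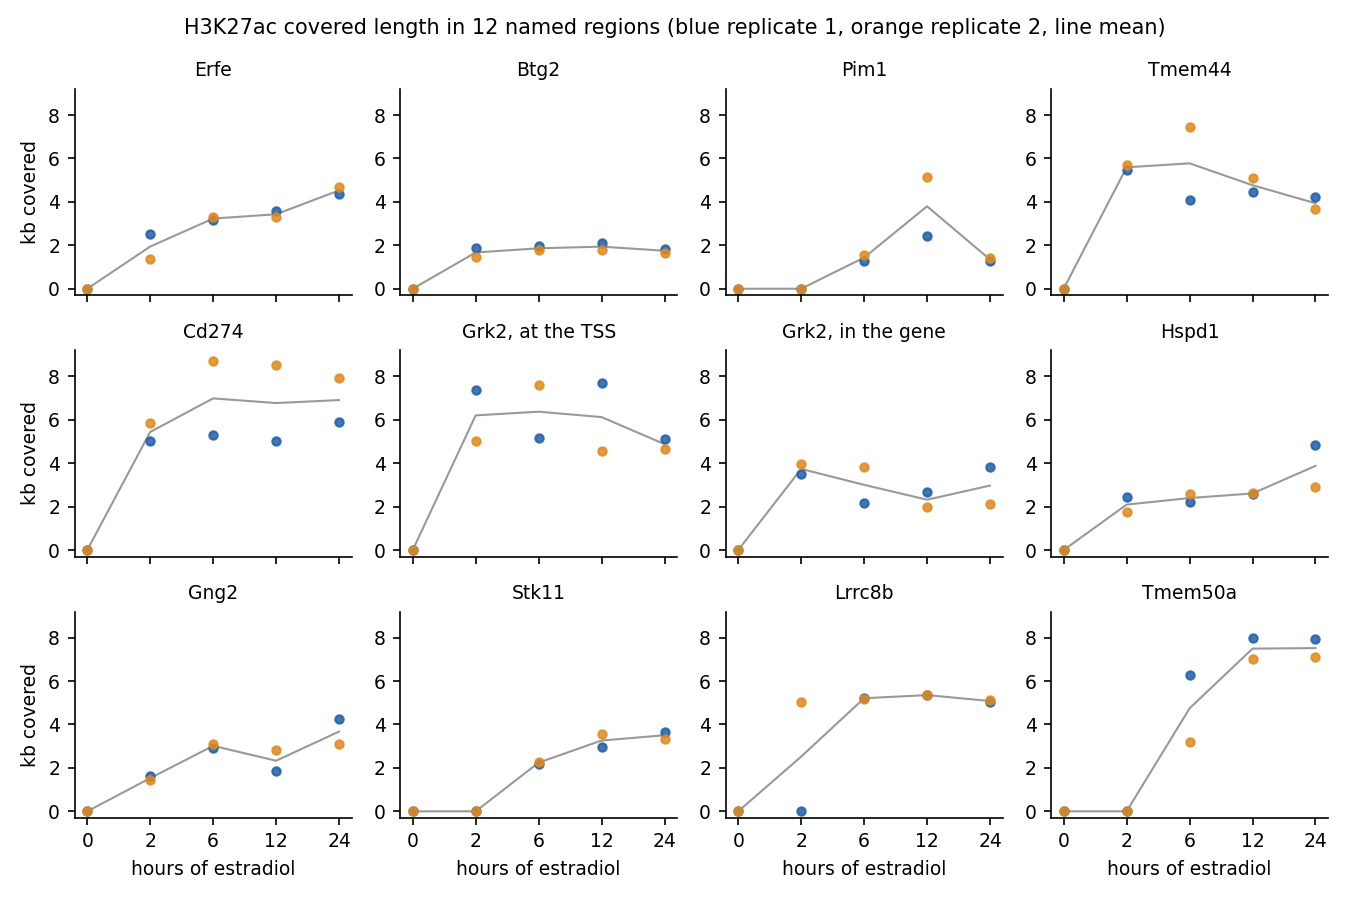
Kb covered by H3K27ac peaks in 12 named regions at each time point (evenly spaced), with points for the 2 replicates and a line through their mean. Pim1, Stk11 and Tmem50a have no peak in either list at 2 h, while Btg2, Tmem44, Cd274 and both Grk2 regions have one in both lists.

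Absence of a peak has a further limit. No H3K27ac list held a peak longer than 8973 bp, so a broader domain may not be listed at all. Of the 279 members, 19 had a peak of 6000 bp or more in some list. Of these, 6 held a TSS and 10 held H3K4me3 in all 10 lists, compared with 8 and 18 of the 260 other members. Its part in the absence of a peak at 0 h was not tested. Without these 19 regions the share with a peak in both 2 h lists was 38.8% and in both 12 h lists 72.7%. The TSS regions of Tmem44 and Cd274, with longest peaks of 5697 and 5902 bp, are not among the 19.

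Most members lay away from promoters. Only 14 (5.02%, 95% Wilson interval 3.01% to 8.25%) held a protein-coding TSS, compared with 33.4% of all regions. The share was 3.68% (2.12% to 6.32%) in the regions gained late and 11.3% (8.19% to 15.5%) in those lost early. A low share was thus not particular to the members. The rule applied to higher-scoring peaks alone chose a different set of 87 regions. Of these, 30 (34.5%) held a TSS, against 65.7% of 10978 regions. Of the 279, 123 (44.1%, 38.4% to 50.0%) lay in an intron, compared with 23.3% of all regions, 41.1% of the regions gained late and 28.2% of those lost early. Another 71 reached a coding exon, 11 a noncoding exon part, and 60 were intergenic. The median distance to the nearest protein-coding TSS was 21250 bp, and 219 members (78.5%) had one within 50 kb, close to the 79.6% of all regions. Members were 597 to 9976 bp long, with a median of 2218 bp. The nearest 0 h peak lay 367 bp away at the closest and 10023 bp at the median, and 4 members had another member within 10 kb. The 14 TSS members included those of 9130213A22Rik, C3ar1, Cbr1, Cd274, Cers5, Grk2, Mtmr11, Set, Setdb1, Sh3bp5, Tmem44, Tmem50a and Top3a. Of the 14, 12 held H3K4me3 in all 10 lists and that of C3ar1, a complement receptor gene, in none.

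Few genes of the fixed lists lay near a member. Over all protein-coding genes, 525 of 21951 (2.39%) had a member within 50 kb of the TSS. In the iron list this held for 1 of 15 genes, Slc11a2, the gene of the iron importer DMT1, within which the member lay (chr15:100389923-100393511). Among erythropoietin and JAK-STAT genes it held for 2 of 13 (Erfe, Pim1), among cell cycle exit genes for 2 of 13 (Btg2 and the CDK inhibitor gene Cdkn2d), and among progenitor and myeloid transcription factors for 2 of 16 (Spi1, which encodes PU.1, and Cebpb). It held for 1 of 18 erythroid transcription factors (Mafg, a small MAF partner of NF-E2), 1 of 23 red cell membrane and surface genes (Rhd), and 2 of the 41 captured promoters (Btg2, Tmem44). In the globin, heme synthesis, autophagy, mast cell, megakaryocyte, macrophage, T cell, B cell, hepatocyte and neuron lists it held for 0 genes. With lists of 7 to 41 genes these counts are descriptions, and no gene expression was measured here. A member within 50 kb need not belong to the listed gene. That counted for Rhd is the region at the TSS of Tmem50a, 48094 bp from the Rhd TSS. That counted for Mafg lay 43538 bp from its TSS, nearest to Arhgdia. The Cebpb member lay in an intron of Tmem189, and that of Cdkn2d within Atg4d and Kri1.

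The Slc11a2 and Spi1 members were absent from 1 or both 2 h lists. The Slc11a2 member covered 0 bp and 0 bp at 2 h, 2246 bp and 3403 bp at 6 h, 2684 bp and 2118 bp at 12 h, and 3224 bp and 2773 bp at 24 h. The member inside Spi1 (chr2:91112051-91114638) covered 0 bp and 918 bp at 2 h, 1175 bp and 2000 bp at 6 h, 2074 bp and 1100 bp at 12 h, and 2284 bp and 2177 bp at 24 h. PU.1 is a myeloid factor that GATA1 antagonizes, and the listed peak in its gene was present in 1 list at 2 h and in both lists of each later time point. The nearest TSS to this region was that of Mybpc3, 3506 bp away, and that of Spi1 was 15955 bp away.

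GATA motifs were frequent in the middle of the members. In the central 500 bp of the part covered in all 6 and 24 h lists, 213 of 279 members (76.3%, 95% Wilson interval 71.0% to 81.0%) held at least 1 match. In the same window at the middle of the merged region the share was 75.3% (69.9% to 80.0%) for the members, 76.1% (71.2% to 80.4%) for the regions gained late, 66.1% (64.9% to 67.3%) for regions in all 10 lists without a TSS, 60.1% (54.4% to 65.6%) for the regions lost early, and 57.9% (57.3% to 58.6%) for all regions. The interval of the members lay above those of the constant, lost and all regions and overlapped that of the regions gained late. When the windows were moved by 50 kb, 60.6% of the member windows and 61.3% of the windows of all regions held a match. The same 4 forms read backwards (such as AATAGA), with the same base composition and on both strands, were found in 51.3% of member centres, and in 52.3% of members against 44.0% of all regions at the middle of the merged region.

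The number of matches varied among members. None was found in the central 500 bp of 66 members, 1 in 89, 2 in 55, 3 in 47, and 4 or more in 22. Over the whole shared part, 250 members (89.6%) held a match, with a median of 3 and a maximum of 32. The share with a match in the centre was 78.8%, 72.3% and 78.6% in members with a peak in 0, 1 and 2 of the 2 h lists, and the intervals overlapped. By position, matches were densest just past the middle of the region, at 3.73 per kb, and lay between 1.58 and 2.62 per kb beyond 1 kb. The Erfe member held 4 matches in 3067 bp of shared peak, and that of Cd274 15 in 4863 bp, in which the stretch printed above lies.

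**Figure D4:**
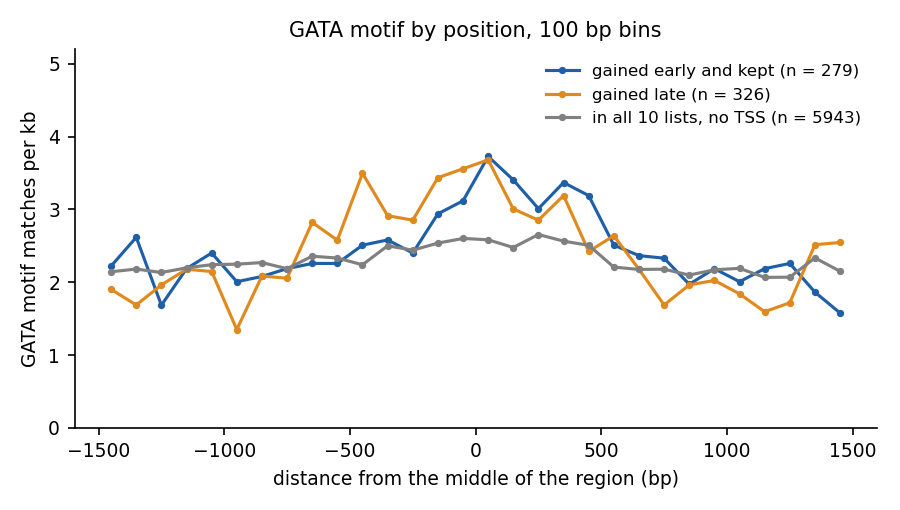
GATA motif matches per kb in 100 bp bins against distance from the middle of the region, for the 279 regions gained early and kept, the 326 gained late, and the 5943 regions in all 10 lists without a TSS. The first group reaches 3.73 matches per kb just past the middle, the late group 3.68, and the constant group does not exceed 2.66 in any bin.

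H3K4me3, the mark of active promoters, was less common in the members than in all regions. A peak was found in at least 1 of the 10 H3K4me3 lists at 45 members (16.1%, 95% Wilson interval 12.3% to 20.9%), compared with 57.3% of all regions. The share was 11.7% (8.61% to 15.6%) in the regions gained late, whose interval overlapped that of the members. In the regions lost early it was 30.9% (25.9% to 36.5%). In the different set of 87 regions that the rule chose from higher-scoring H3K27ac peaks, 66 (75.9%) held one, against 91.0% of 10978 regions. Of the 45, 28 held it in all 10 lists, 12 in 2 to 9, and 5 in 1. It was in both 0 h lists at 36 members (12.9%) and in both 24 h lists at 30 (10.8%), against 50.7% and 47.4% of all regions. No member had H3K4me3 in neither 0 h list and in both 24 h lists, so that 0 of 279 gained it by that standard. In 3 members it was in both 0 h lists and neither 24 h list. These patterns were not counted over all regions, so nothing is read from them about the members.

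The change of H3K4me3 from 0 to 24 h was tested with limma over all 10 lists, in 13255 H3K27ac regions with an H3K4me3 peak in at least 2 lists. Of these regions 1.94% were called, 1.43% shorter at 24 h and 0.505% longer. Of the members, 40 were tested, 3 were called, and all 3 were shorter at 24 h. An unadjusted p under 0.05 was found for 7. Leaving out the first 0 h list, the second 0 h list, or the first 24 h list each gave 0 called members, and leaving out the second 24 h list gave 1.

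Of the 3 called members, those near Hoxc4 and Ppm1d held H3K4me3 in the 0 h lists alone and passed the filter only through them, so they had to differ. With a peak required in at least 5 lists, 1 member was called. The region within Emilin2 (chr17:71250264-71258608), an extracellular matrix gene, covered 5319 bp and 5361 bp of H3K4me3 at 0 h, 4476 bp and 3891 bp at 2 h, 4169 bp and 4132 bp at 6 h, 3807 bp and 3997 bp at 12 h, and 3865 bp and 3783 bp at 24 h. All 8 later lists were below both 0 h lists, and the log2 difference from 0 to 24 h was -0.46 ± 0.06 (SE; limma adjusted p = 0.0199). The same region had H3K27ac peaks of 7937 bp and 8114 bp at 6 h and 8243 bp and 7499 bp at 24 h but none in the 2 and 12 h lists. These lengths are near that of the longest listed H3K27ac peak, 8973 bp. Whether broader peaks went unlisted at 0, 2 and 12 h was not tested.

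The Hoxc4 and Ppm1d members are described by their lengths alone. The member 48719 bp from the TSS of Hoxc4 (chr15:103083114-103087152), a homeobox factor gene, held 629 bp and 758 bp of H3K4me3 at 0 h and none in the 8 later lists. That 11241 bp from the TSS of Ppm1d (chr11:85297082-85300003), which encodes a phosphatase that opposes p53 signalling, held 581 bp and 791 bp at 0 h and none later. Both regions thus had listed H3K4me3 peaks without H3K27ac peaks at 0 h, and the reverse at 6 and 24 h. In H3K27ac, Hoxc4 covered 3163 bp and 3098 bp at 2 h and 3113 bp and 3142 bp at 12 h, and Ppm1d 0 bp and 1611 bp at 2 h and 2038 bp and 1591 bp at 12 h.

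H3K4me3 in all 10 lists covered the greatest length in the members near or within genes that included Set, Nrbf2, Emilin2, Shcbp1l and Cirbp. Set, which encodes a histone chaperone and phosphatase inhibitor, covered 7779 bp and 8156 bp at 0 h and 7820 bp and 7116 bp at 24 h, but 3773 bp in the first 6 h list and 3351 bp in the second 12 h list. Nrbf2, a gene of the autophagy PI3-kinase complex, had 6514 bp and 6648 bp at 0 h and 5246 bp and 5250 bp at 24 h. Its log2 difference was -0.32 ± 0.06 (SE), with a limma adjusted p of 0.0699. Shcbp1l had 4154 bp and 4129 bp at 0 h and 4251 bp and 3910 bp at 24 h. Cirbp, which encodes a cold-inducible RNA-binding protein, had 3600 bp and 3907 bp at 0 h and 3662 bp and 3427 bp at 24 h. The 0 and 24 h values of Shcbp1l, Cirbp and Set overlapped, and those of Nrbf2 did not.

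**Figure D5:**
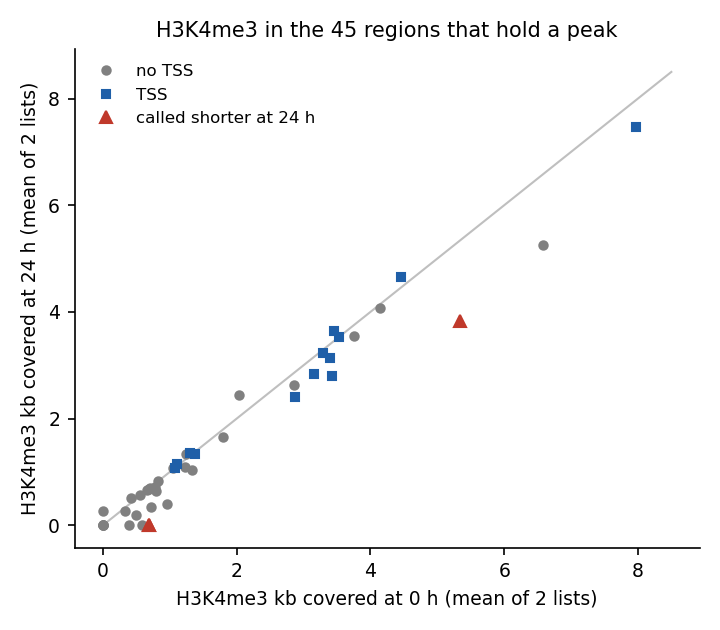
Kb covered by H3K4me3 at 0 h (x axis) and 24 h (y axis), each the mean of 2 lists, in the 45 members with an H3K4me3 peak in any list; squares hold a TSS, triangles were called shorter at 24 h, and the line marks equal length. The triangles are the Emilin2 region and, on top of each other near the origin, those near Hoxc4 and Ppm1d.

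CTCF, a DNA-binding protein found at loop anchors, occupied a part of the members that was about the same before and after induction. With 1 list per time point there was no replicate. A CTCF peak overlapped 53 members at 0 h (19.0%, 95% Wilson interval 14.8% to 24.0%) and 54 at 24 h (19.4%, 15.1% to 24.4%), compared with 25.3% and 31.0% of all regions, while the CTCF lists held 33193 and 41473 peaks. At 24 h the share was 22.1% in the regions gained late and 18.6% in those lost early. In the different set of 87 regions chosen from higher-scoring H3K27ac peaks, the 24 h share was 40.2%, against 41.4% of all regions of that peak set. Among the 279 members, CTCF overlapped 45 at both times, 9 at 24 h alone and 8 at 0 h alone. Over all regions 6.99% had CTCF at 24 h alone and 1.33% at 0 h alone. The members near Pim1, Tmem44, Cd274, Tmem50a and the TSS of Grk2 held CTCF at both times, and those near Erfe, Btg2, Stk11 and Eps15l1 at neither. The Wilson intervals cover counting error only.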

How the data were processed

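Lists of ChIP-seq peaks for H3K27ac, H3K4me3 and CTCF in G1ER cells were analyzed, 1 list per library. For H3K27ac and H3K4me3 the authors mapped reads to mm10 with Bowtie2 at default settings, kept those that mapped uniquely, and called peaks per library with MACS without its model step. The MACS version, control and threshold were not given in the sources used here. For CTCF only Bowtie2 and mm10 are named, in the submitters' processing notes. The labels also name a human build, but 58.0% to 64.2% of H3K4me3 peaks held a mouse protein-coding TSS, against 4.28% to 4.58% when moved by 50 kb. The fifth deposited column holds a score that the authors set. It was not compared between lists except in 1 alternative, and was otherwise used as a percentile within a list. Depth is unknown.

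Groups followed the sample titles. TSSs were 1 per protein-coding gene of GENCODE M21 (GRCm38). A region was named by its nearest TSS within 50 kb, and by coordinates or the gene that holds it otherwise. Covered length was compared with limma (moderated tests with a mean trend) on log2(covered bp + 200), and the script was tested on simulated data. A length that jumps between 0 and a whole peak is not normally distributed, which limma takes it to be. Named regions were those nearest to a gene of the 17 fixed lists, the 10 with the highest mean percentile at 2 and 12 h, and the 6 with H3K4me3 in most lists. Added to these were up to 4 called in each direction of the H3K27ac fit. From the H3K4me3 fit came up to 4 called in either direction, by lowest adjusted p. Some regions that the rule names are not reported here. Other named genes come from the counts by list or were chosen after their values were seen. The members and lists were chosen with earlier results of these data known. Motifs were counted on both strands, overlapping matches included. In 3 members no base was covered in all 6 and 24 h lists, and the whole region was used. Alternatives were other peak sets, merging, overlap, chromosomes, windows, pseudocounts, filters, scaling, a replicate block, and leaving out each list. R 4.3.3, limma 3.58.1, Python 3.11.15, pandas 2.3.3, numpy 2.4.6 and scipy 1.17.1 were used.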

Additional observations from a re-analysis of the deposited data

How the results depend on the processing

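The members and their number depended on the peak set. When peaks below the median score over all lists were dropped, the rule chose 87 regions. A region whose 0 h peaks all fell below that score could then enter, so these are not a part of the 279. Their shares were 26.4% for both 2 h lists, 34.5% for a TSS, 75.9% for H3K4me3 and 40.2% for CTCF at 24 h. Over all regions of that peak set the shares were 72.3%, 65.7%, 91.0% and 41.4%. With peaks required to cover at least 50% of the region there were 439 members, and the shares became 46.7%, 12.1%, 32.3% and 26.9%. Leaving out the first 0 h list gave 510 members and leaving out the second 543, and leaving out each rule list gave 331 to 543. Across these, both 2 h lists held a peak at 30.2% to 54.0%, both 12 h lists at 62.0% to 74.2%, a GATA motif was in 70.7% to 75.8%, and H3K4me3 in 16.2% to 24.9%. A GATA motif was in 42.3% of 200 bp and 95.7% of 1000 bp windows at the middle of the shared part of the members, against 31.1% and 79.9% at the middle of all other regions. Leaving out regions with a peak of 6000 bp or more and placing the window at the middle of the region were chosen after seeing the data, and moved no share beyond the 95% Wilson interval of its main value.

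In the H3K27ac test of 12 h against 2 h (main counts 118 regions and 4 members), limma called 0 regions and 0 members with no filter (2123 and 55 at an unadjusted p under 0.05). It called 390 and 1 with higher-scoring peaks, and 230 and 38 with all 10 lists in the fit. That last fit includes the lists that chose the members. By the rule the members have no spread between the 0 h lists, so nothing is read from the 38. It called 1 member with a 50 bp pseudocount and 2 with a peak in at least 1 of the 4 lists. Leaving out each list gave 0 to 85 regions and 0 to 2 members: 0 regions without either 2 h list (1643 and 2014 unadjusted), and 73 without the second 12 h list. In the H3K4me3 test (257 regions and 3 members) limma called 143 and 1 with a peak in at least 5 lists, 529 regions with the 4 lists at 0 and 24 h alone, and 92 and 0 (2 unadjusted) with higher-scoring peaks. Leaving out each list gave 75 to 329 regions and 0 to 4 members, with 75 without the first 0 h list and 90 without the second. With a replicate block the H3K27ac test called 0 regions and 0 members (1554 and 54 unadjusted) and the H3K4me3 test 159 and 0 (6 unadjusted). The replicate numbers share only a number: the deviations of same-numbered lists correlated between -0.029 and 0.017 over time points for H3K27ac and between -0.131 and 0.048 for H3K4me3. Where the cause of a change is not plain from the setting, the cause was not tested. The unknown depth limits every absence of a peak.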

Other observations

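Other motifs were counted in the central 500 bp of the merged region, the same window in all regions. Between members and all regions they differed by fewer percentage points than the GATA motif did. An E-box (CAGCTG or CAGATG), of the kind that TAL1 binds, was in 57.0% of members (95% Wilson interval 51.1% to 62.7%). The interval lay above the 46.3% of all regions and the 48.3% of regions in all 10 lists without a TSS. It overlapped those of the regions gained late (52.1%, 46.7% to 57.5%) and lost early (49.8%, 44.1% to 55.5%). A KLF-type motif (CCACACCC, CCACGCCC, CCCCACCC or CCCCGCCC) was in 21.9% and 26.4%, and an ETS core (GGAAGT), of the kind that PU.1 can bind, in 28.3% (23.4% to 33.9%) and 32.7%, which the interval includes. RUNX (TGTGGT) was in 34.4% (29.1% to 40.2%) and 30.2%, and the NF-E2/AP-1 motif (TGAGTCA or TGACTCA) in 11.5% and 9.78%. The composite of CTG and GATA at a spacing of 7 or 8 bases was in 9.32% (6.44% to 13.3%) and 7.17%, which the interval includes. Median GC content of the members was 48.0%, against 48.4% in all regions. All searches covered both strands.

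Within the members, position and 2 h presence were combined as values. Of the 66 members without a peak at 2 h, 29 were intronic and 12 intergenic. Of the 101 with a peak in 1 list, 40 and 32 were, and of the 112 with a peak in both lists, 54 and 16.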
